A study of Sus scrofa with 16 samples.

Results

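Apolipoproteins are the proteins that coat plasma lipoproteins, and 9 of their genes were followed across the liver and the colonic mucosa of pigs: APOA1, APOA2, APOA4, APOB, APOC3, APOE, APOH, APOM and APOR. An array probe was taken as a member when the scanner files gave one of these symbols as its gene name or in brackets in its description. No measured value decided which probes of a gene were taken, but the genes themselves were chosen with earlier results of these data known. This rule found 12 of the 43603 probes that were no controls, for 7 of the 9 genes. APOA1, APOA4, APOB, APOC3 and APOM had 2 probes each, and APOA2 and APOE had 1 each. APOH matched 0 probes. APOR also matched 0 probes by that name, but the RefSeq table of the pig gives it as an older name of C4BPA, whose 6 probes are described separately and enter none of the counts over the 12.

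Lipids do not dissolve in plasma and travel in particles whose surface carries apolipoproteins. APOB is the backbone of very low density and low density lipoproteins and is loaded with lipid inside the hepatocyte or enterocyte. APOA1 and APOA2 are the main proteins of high density lipoproteins, which take up cholesterol from cells. APOC3 slows the clearance of triglyceride-rich particles, APOE is the ligand by which receptors of the LDL receptor family take remnants up, APOA4 is a lipid-responsive protein of intestine and liver, and APOM carries sphingosine 1-phosphate. The liver is the main source of most of them, while macrophages in many tissues make APOE.

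The pigs were barrows of the cross Duroc × Landrace × Large White, started on the diets at 70 days of age and sampled at 170 days, after 100 days. The CS group ate a corn and soybean diet with purified corn starch, at 230 g per kg of feed at first and 280 g later. In the RPS group purified raw potato starch, a resistant starch, took its place at the same rate. The 4 groups were liver with CS, liver with RPS, colon with CS and colon with RPS, each with 4 arrays of 1 pig each, and the mucosa had been scraped from the proximal colon of pigs kept off feed before slaughter, so it holds epithelium together with cells beneath it.

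Each array measured the 43603 probes with a single dye. The share of probes marked as well above background was 61.1% to 65.9% on the liver arrays and 64.9% to 72.2% on the colonic ones, and 0 spots were saturated. Each group was hybridized on 1 slide of its own and scanned once, so slide and group cannot be told apart. In the colon the median signal before normalization was 56.3 to 70.8 on the slide of the CS group and 34.2 to 42.5 on that of the RPS group. Of the colonic arrays, 2 stood apart by the summed signal of their epithelial transcripts. The signals of 9 markers of colonic epithelium were summed and the log2 of the sum taken, so the brightest markers weigh most. This was 17.14 on CS replicate 3 and 17.80 on RPS replicate 2, against 18.84 to 19.38 on the others. The log2 of the sum for 4 enterocyte markers was also lowest of each group there, with 16.17 and 16.77. By the median of the 9 epithelial markers, RPS replicate 4 was low too. It had 11.23, after 9.15 on CS replicate 3 and 10.67 on RPS replicate 2, and the remaining arrays had 13.29 to 14.99. Arrays called low in epithelial markers below are the 2 lowest by the sum, and RPS replicate 4 is kept. Colonic results are therefore also given without both, an alternative chosen after these values were seen. The number of arrays limits the precision of every value. The labels do not state whether a liver and a colonic array with the same number come from 1 pig.

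The scanner files give each probe's sequence of 60 bases and its start in a reference transcript, but no place in the genome, and name no genome build. In the RefSeq table of assembly Sscrofa11.1, APOA5, APOA4, APOC3 and APOA1 lie in this order on chromosome 9, APOE lies on chromosome 6, APOB on 3, APOA2 on 4 and APOM on 7. The 5 probe sequences below are shown because the results turn on whether 2 probes of a gene are separate readings of it. The APOA1 probes, which start at bases 407 and 371 of the transcript, share a run of 25 bases, given in capitals, and are therefore not independent of each other.
APOA1, A_72_P035886: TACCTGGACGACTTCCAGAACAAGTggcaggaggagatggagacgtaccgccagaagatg
APOA1, A_72_P754826: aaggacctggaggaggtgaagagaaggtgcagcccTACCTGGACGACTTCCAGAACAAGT
APOC3, A_72_P685483: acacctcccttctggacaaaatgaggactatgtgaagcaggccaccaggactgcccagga
APOC3, A_72_P177696: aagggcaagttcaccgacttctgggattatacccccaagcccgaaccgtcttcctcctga
APOA4, A_72_P441539: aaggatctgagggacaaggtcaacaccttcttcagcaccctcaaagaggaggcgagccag
The APOC3 probes start at bases 73 and 231 of their transcript and share no run longer than 7 bases. The APOA4 probe shown starts at base 1115, and the brighter APOA4 probe at base 1328, with no shared run longer than 5. The polyadenylation signal AATAAA stood in 3 of the 12 probes (the APOA2 probe and the brightest probes of APOA4 and APOM), against 9.60% of all probes searched on the printed strand. Levels are compared below only within a probe, since 2 probes differ in how strongly they bind.

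The first comparison asked where these genes were expressed. All 12 probes were higher in the liver than in the colonic mucosa, with an adjusted p below 0.05 and a fold change above 1.5 in limma. Among all probes, 42.2% passed these thresholds, 18.7% as higher in the liver and 23.4% as higher in the colon. The log2 difference, colon minus liver, ran from -5.48 for APOE to -16.48 for the second APOC3 probe, with a median of -8.89 over the 12 probes against 0.01 over all probes, and the adjusted p lay between 8.26e-20 and 7.44e-08. At no probe did the 8 liver arrays overlap the 8 colonic ones, which was so at 26.8% of all probes. Without the 2 colonic arrays low in epithelial markers, 12 of 12 passed again.

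In the colon APOA1, APOA2, APOE and APOM were detected on every one of the 8 arrays. The brightest APOA1 probe had a normalized log2 signal of 17.46 ± 0.20 (SD, n = 8) in the liver and 8.44 ± 0.69 (SD, n = 8) in the colon, a 521-fold difference (log2 difference -9.03, standard error 0.26, colon minus liver). APOA2 had 17.86 ± 0.11 (SD, n = 8) in the liver and 9.18 ± 0.28 (SD, n = 8) in the colon, which is 410-fold. The brightest APOM probe stood at 15.30 ± 0.44 (SD, n = 8) and 8.30 ± 0.31 (SD, n = 8), or 128-fold. APOE, the ligand for remnant uptake, differed least, with 15.50 ± 0.23 (SD, n = 8) in the liver and 10.02 ± 1.30 (SD, n = 8) in the colon, a 44.6-fold difference (log2 difference -5.48, standard error 0.40). Its colonic signal ranged from 8.02 to 12.14, so the highest colonic array lay 3.15 below the lowest liver array. The APOE values rest on 1 probe. Another probe, described only as porcine apolipoprotein E precursor, without the symbol, did not show this difference. It was well above background on 0 of 8 liver arrays and 1 of 8 colonic arrays, with a log2 difference of 0.016, and enters none of the counts.

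APOA4, APOB and APOC3 were at or near background in the colon. For them a lower limit is given, the liver mean against the colonic mean in which each array counts with at least the dimmest signal of any probe found well above background on it. The limit, written as at least, holds only with the background correction of the scanner files, here and for the pathway genes below. APOB, the backbone of very low density lipoproteins, had a liver signal of 16.20 ± 0.24 (log2, SD, n = 8) and was well above background on 2 of 8 colonic arrays at its brightest probe and on 0 of 8 at the other. It was at least 10140-fold higher in the liver by the first and at least 297-fold by the second. APOC3 was at least 21780-fold higher at its brightest probe, detected on 6 of 8 colonic arrays, and at least 54250-fold at the other, detected on 4 of 8. APOA4 was at least 2399-fold and at least 264-fold higher at its probes, each detected on 1 of 8 colonic arrays. The normexp background correction adds an offset to dim signals. With it the measured log2 difference shrank from -12.35 to -7.65 for APOA4, from -14.20 to -9.90 for APOB and from -14.44 to -11.19 for APOC3. In size these lie under the limits above, which on the log2 scale are 11.23, 13.31 and 14.41 at the brightest probes.

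Other hepatocyte transcripts moved the same way. Of 15 listed hepatocyte markers 10 had a probe, and all 10 were higher in the liver. The log2 of their summed signal was 21.18 to 21.35 on the liver arrays and 9.04 to 10.49 on the colonic arrays. TTR, FGA, FGG and CYP2E1 were above background on none of the 8 colonic arrays, ALB on 6, and SERPINA1, TF, HP, SERPINC1 and F2 on all 8. Of 15 markers of colonic epithelium 9 had a probe, of which 8 passed as higher in the colon, and KRT20 differed most, by 13.58 on the log2 scale. What these marker levels contribute to the colonic APOA1, APOA2 and APOM signals was not tested. In bulk tissue, fewer cells of a type and less RNA per cell cannot be told apart.

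**Figure D1:**
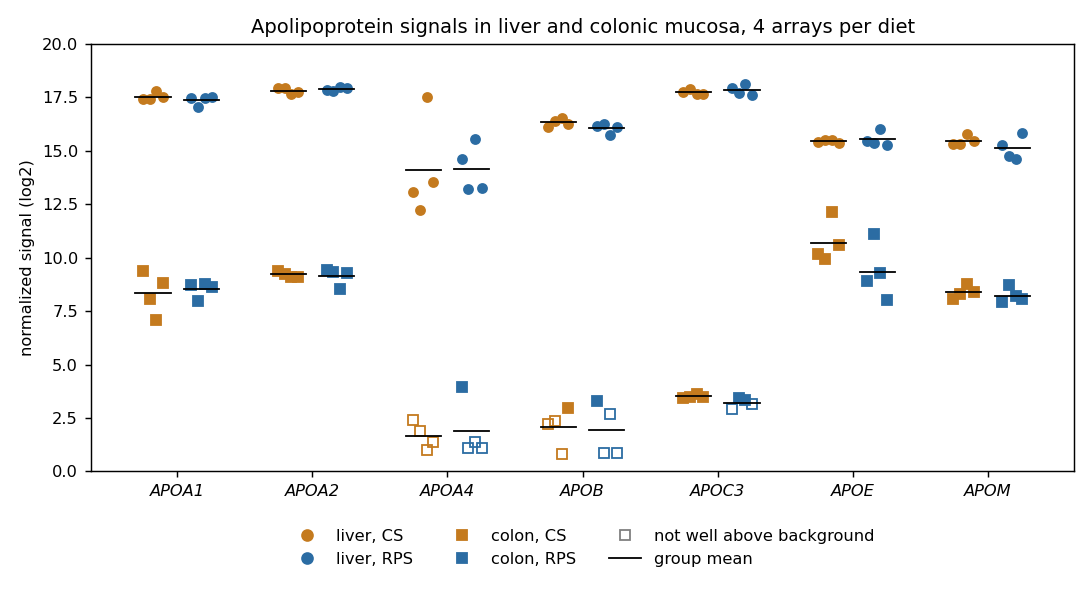
Normalized log2 signal of the brightest probe of each gene on all 16 arrays (y axis), with circles for liver, squares for colon, orange for CS, blue for RPS, open symbols for arrays where the probe was not well above background, and a line at each group mean. Every liver array lies above every colonic array of the same gene, and APOA4 spreads from 12.24 to 17.51 in the liver.

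The second comparison asked whether the diet changed these genes in the liver. It gave no call: 0 of the 12 probes had an adjusted p below 0.05 (smallest 0.747, limma), where 0.00229% of all probes did. With the thresholds of the study's methods, an unadjusted p below 0.05 and a fold change above 1.5, 0 of 12 passed against 3.56% of all probes, and 0 of 12 had an unadjusted p below 0.05 in limma, against 7.59% of all probes. The methods' t-test also passed 0 of 12. Of the 12, 6 were higher and 6 lower with RPS, the median log2 difference was -0.07 against -0.0038 over all probes, and the range was -0.42 to 0.11. At 0 probes were the diet groups apart, against 4.45% of all probes.

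Of the high density lipoprotein genes, APOA1 and APOA2 varied less within a diet than the median probe, and APOM varied more. Their pooled SD was 0.20, 0.11 and 0.41 against a median of 0.26. APOA1 had log2 signals of 17.40, 17.43, 17.81 and 17.50 with CS and 17.46, 17.06, 17.47 and 17.49 with RPS at its brightest probe. RPS replicate 2 was the lowest and CS replicate 3 the highest of the 8, and the other arrays overlapped. The difference was -0.16 (RPS minus CS, standard error 0.14), and it was -0.19 at the overlapping second probe. APOA2 had 17.94, 17.96, 17.68 and 17.79 with CS and 17.86, 17.83, 18.02 and 17.94 with RPS, a difference of 0.07 (standard error 0.09). The APOA2 arrays overlapped and all 8 lay within 0.34 of each other. APOM gave 15.39, 15.41, 15.83 and 15.54 with CS and 15.33, 14.81, 14.68 and 15.88 with RPS, so that RPS held both its highest and its lowest value. Its difference was -0.37 (standard error 0.27), and -0.42 (standard error 0.25) at the second probe. Without RPS replicate 4 both APOM probes met the methods' thresholds, with -0.61 and -0.62 (adjusted p = 0.451 and 0.475, limma). Of all 43603 probes, 2029 met them in that setting.

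Among the genes of triglyceride-rich particles, APOB had 16.12, 16.41, 16.56 and 16.27 with CS and 16.17, 16.27, 15.80 and 16.14 with RPS. RPS replicate 3 was lowest, the groups overlapped, and the difference was -0.25 (standard error 0.14, adjusted p = 0.747, limma). The second APOB probe gave -0.17 (standard error 0.13). A probe described only as porcine apolipoprotein B, without the symbol, stood at 13.00 in both diet groups, with an SD of 0.26 (n = 4) for CS and 0.07 (n = 4) for RPS. APOC3 had 17.77, 17.91, 17.70 and 17.70 with CS and 17.96, 17.72, 18.19 and 17.60 with RPS, a difference of 0.10 (standard error 0.14). The second APOC3 probe, in a separate stretch of the transcript, gave 0.08 (standard error 0.07). APOE had 15.49, 15.58, 15.56 and 15.43 with CS and 15.52, 15.44, 16.07 and 15.36 with RPS. Its difference was 0.08 (standard error 0.16), with RPS replicate 3 alone above the range of the others.

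APOA4 stood apart by its spread between pigs of the same diet. Its brightest probe had log2 signals of 13.04, 12.17, 17.50 and 13.54 with CS and 14.69, 13.19, 15.60 and 13.23 with RPS. CS replicate 3 was highest and CS replicate 2 lowest, a 40.2-fold range within 1 diet. The other probe, which shares no long run of bases with it, ordered the extremes alike, with 9.80, 8.92, 14.34 and 10.20 with CS and 11.43, 9.77, 12.38 and 9.76 with RPS. The pooled SD within the groups was 1.87 and 1.93 at the 2 probes. Of the 24978 probes well above background on all 8 liver arrays, 36 and 25 had a larger one, and the median was 0.26. The other 10 apolipoprotein probes had a pooled SD between 0.06 and 0.41. The diet difference of APOA4 was 0.11 with a standard error of 1.19 (adjusted p = 0.998, limma), and it lay between -0.52 (without CS replicate 2) and 1.26 (without CS replicate 3) with 1 array left out. The direction and size of any diet effect on liver APOA4 were therefore not settled by these arrays.

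**Figure D2:**
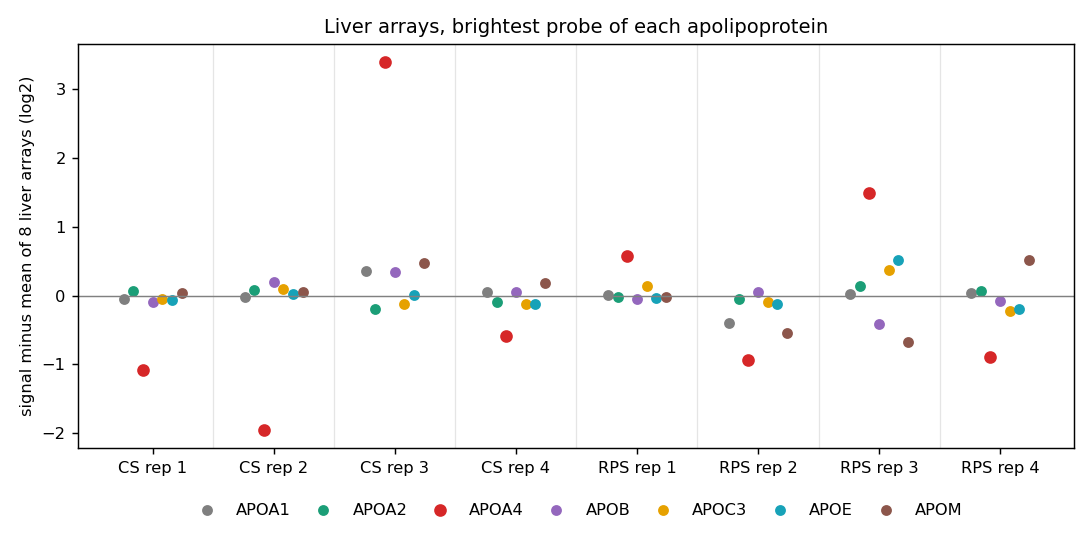
Log2 signal of each apolipoprotein's brightest probe on each liver array less its mean over the 8 arrays (y axis), for the 4 arrays of each diet (x axis; the numbers name arrays and have no order). APOA4 (red) reaches its highest level, 17.50, on CS replicate 3 and its lowest, 12.17, on CS replicate 2, while the other genes stay within 1 of their means.

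In the colon 0 of the 12 probes had an adjusted p below 0.05 (smallest 0.914, limma), as had 0% of all probes. With the methods' thresholds 1 of 12 passed, an APOM probe that was lower with RPS, against 2.94% of all probes in either direction and 1.32% lower. An unadjusted p below 0.05 was found at 2 of 12 probes (APOM and APOC3), against 5.42% of all probes. Of the 12, 4 were higher and 8 lower with RPS, with a median log2 difference of -0.13 against 0.01 over all probes and a range of -1.33 to 1.41. The diet groups did not overlap at 2 probes, one of APOC3 and one of APOB, against 6.51% of all probes.

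The APOM probe that passed had log2 signals of 5.11, 4.92, 5.54 and 4.85 with CS and 4.28, 4.79, 4.92 and 3.97 with RPS, well above background on all 8 arrays. RPS replicate 3 reached into the range of CS, so the groups overlapped. The difference was -0.61 (1.53-fold lower with RPS, standard error 0.26, adjusted p = 0.914, limma; exact two-sided permutation test, p = 0.0857). The brighter APOM probe gave -0.15 (standard error 0.22), with 8.26, 8.49, 8.95 and 8.62 with CS and 8.13, 8.91, 8.42 and 8.26 with RPS. Without the 2 arrays low in epithelial markers the probe that had passed gave -0.57 (standard error 0.26) and no longer met the methods' thresholds. The call was also lost in the methods' t-test, with the intensity trend, with normexp and without any of CS replicates 1, 2 and 3 or RPS replicates 1 and 4.

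APOE, which macrophages make as well as hepatocytes, had the largest difference among probes detected on all 8 colonic arrays. Its log2 signals were 10.32, 10.11, 12.21 and 10.73 with CS and 9.09, 11.27, 9.46 and 8.23 with RPS. CS replicate 3 and RPS replicate 2 were the highest of their groups, and the latter lay above 3 of the 4 CS arrays. These are the 2 arrays low in epithelial markers, with sums of 17.14 and 17.80. The difference was -1.33 (2.51-fold lower with RPS, standard error 0.73, adjusted p = 0.982, limma; exact two-sided permutation test, p = 0.143). It was -1.92 without RPS replicate 2, when it met the methods' thresholds (adjusted p = 0.473, limma), as did 2635 of the 43603 probes. The difference was -0.88 without CS replicate 3. Without both it was -1.47 (standard error 0.36), which met the methods' thresholds (adjusted p = 0.365, limma), and APOE was then the only one of the 12 probes to do so. Of all 43603 probes, 2385 met them in that setting. Its pooled SD within the groups, 1.13, was above that of 96.4% of the 26509 probes that all 8 colonic arrays detected.

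The summed macrophage markers were also lower in the RPS group. Of 10 listed markers 6 had a probe (CD163, C1QA, C1QB, C1QC, CD14 and AIF1), each detected on all 8 colonic arrays. The log2 of their summed signal, in which the brightest markers weigh most, was 15.43 to 15.61 with CS and 13.81 to 15.03 with RPS, without overlap. Of all single probes, 6.51% did not overlap by diet in the colon, and the diets were on separate slides that differed in brightness. C1QA, C1QB and C1QC, the chains of complement C1q, met the methods' thresholds, with log2 differences of -0.88, -1.27 and -1.30 (adjusted p = 0.819, 0.594 and 0.657, limma), while CD163, CD14 and AIF1 had -0.30, 0.0013 and -0.42. Over all probes 2.94% met these thresholds in either direction and 1.32% as lower with RPS. The log2 of the summed signal of 5 fibroblast and smooth muscle markers was likewise 15.22 to 15.52 with CS and 14.64 to 15.03 with RPS. Array by array, CS replicate 3, with the highest APOE, had the lowest marker sum of its group, 15.43. Its median marker signal, 12.76, was the highest of the 8 colonic arrays. RPS replicate 2 was highest of its group in both APOE and the marker sum, 15.03, and RPS replicate 4 was lowest in both. The part of these cell types, or of the low epithelial signal on CS replicate 3 and RPS replicate 2, in the APOE values was not tested.

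**Figure D3:**
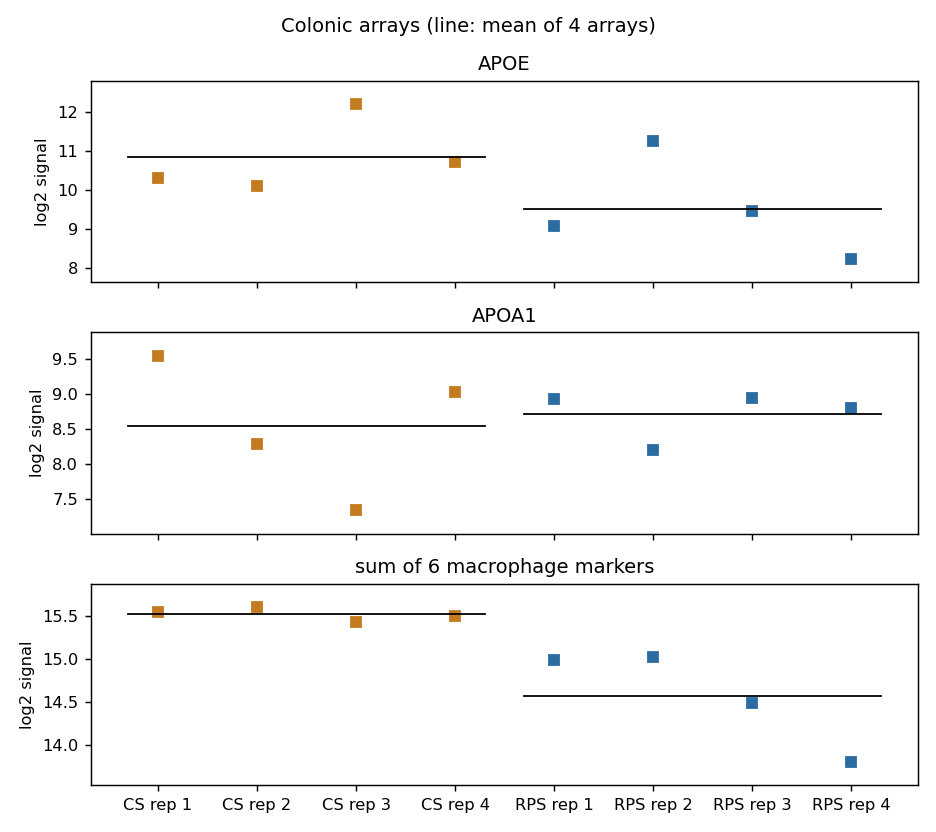
Log2 signals on the 8 colonic arrays (x axis, 4 per diet, numbers without order) of APOE, APOA1 and the sum of 6 macrophage markers, with a line at each group mean and a separate y axis in each panel. APOE peaks at 12.21 on CS replicate 3, where APOA1 has its lowest value, 7.34, and the epithelial markers their lowest sum, 17.14 (not drawn), and the marker sum separates the diets at 15.43 against 15.03.

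The high density lipoprotein genes did not separate by diet in the colon. APOA1 had 9.56, 8.29, 7.34 and 9.03 with CS and 8.93, 8.20, 8.94 and 8.81 with RPS. CS held both the highest and the lowest array, and the difference was 0.17 (standard error 0.47). The lowest arrays of each diet, CS replicate 3 and RPS replicate 2, were those low in epithelial markers, and without them the difference was -0.067 (standard error 0.33). The part of the epithelial signal in the APOA1 values was not tested. The overlapping second probe followed the same order of extremes, from 7.80 on CS replicate 3 to 9.33 on CS replicate 1, with a difference of 0.02 (standard error 0.35). APOA2 had 9.57, 9.44, 9.30 and 9.30 with CS and 9.61, 9.51, 8.74 and 9.46 with RPS. Only RPS replicate 3 lay outside the range of the other APOA2 arrays by more than 0.5, and the difference was -0.07 (standard error 0.20), or -0.17 (standard error 0.26) without the arrays low in epithelial markers.

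The remaining colonic probes were near background, on the slides that differed in brightness. APOC3 at its brightest probe had 3.73, 3.79, 3.91 and 3.79 with CS and 3.19, 3.70, 3.64 and 3.43 with RPS. The groups did not overlap, the probe was detected on 4 CS and 2 RPS arrays, and the difference was -0.31 (standard error 0.13, adjusted p = 0.919, limma; exact two-sided permutation test, p = 0.0286, the smallest that 4 arrays against 4 can give). The second APOC3 probe gave -1.08 (standard error 0.71), and -1.78 without RPS replicate 1, when it met the methods' thresholds (adjusted p = 0.685, limma), as did 1327 of the 43603 probes. The second APOB probe, also without overlap, was above background on none of the 8 arrays, so its order has no meaning. The second APOA4 probe had 0.75, 2.07, 2.32 and 1.77 with CS and 3.13, 2.69, 1.99 and 4.74 with RPS. It was detected on RPS replicate 4 alone, and its difference of 1.41 (standard error 0.62, adjusted p = 0.926, limma) met the methods' thresholds with scaling to the 75th percentile and without RPS replicate 3. Of all 43603 probes, 1968 and 1404 met them in these settings. At the brighter APOA4 probe, detected on RPS replicate 1 alone, the difference was 0.15 (standard error 0.78).

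**Figure D4:**
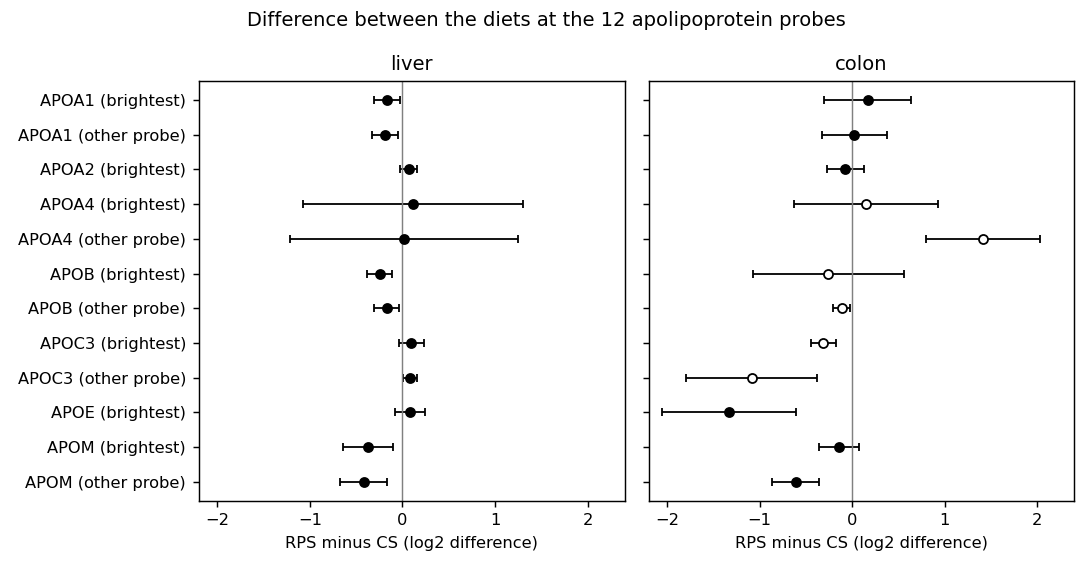
Difference between the diets (RPS minus CS, log2, x axis) at each of the 12 probes in liver (left) and colon (right), with bars of 1 standard error and open symbols where the probe was not well above background on all 8 arrays. The liver values lie between -0.42 and 0.11, and the widest bars belong to APOA4 in the liver and to dim probes and APOE in the colon.

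A test of whether the diet effect differed between the tissues gave 0 of 12 probes with an adjusted p below 0.05 (smallest 0.999, limma), where 0.00229% of all probes passed, and 0 of 12 with an unadjusted p below 0.05, where 4.72% did. The largest interaction was that of APOE, -1.46 (colon diet effect minus liver diet effect, standard error 0.79), and the range over the 12 was -1.46 to 1.29.

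C4BPA, the alpha chain of the complement inhibitor C4b-binding protein and the gene to which the table assigns the name APOR, was read at 6 probes, detected on all 16 arrays. The liver was higher at all 6, by 2.88 to 4.31 on the log2 scale (adjusted p between 4.79e-08 and 1.82e-06, limma). In the liver the brightest probe had 14.59, 14.62, 14.47 and 14.66 with CS and 14.44, 14.66, 14.48 and 14.51 with RPS, all within 0.22 of each other. In the colon it had 11.98, 11.03, 9.63 and 10.42 with CS and 10.57, 8.81, 9.38 and 10.95 with RPS, a difference of -0.84 (standard error 0.64, adjusted p = 0.982, limma). All 6 probes were lower with RPS in the colon, by 0.48 to 1.27, without a call at any of them by either threshold. The lowest array of each group at the brightest probe was again one of the 2 low in epithelial markers. Without both, the 6 differences were -0.54 to -1.55, of which 2, the probe at base 578 (-1.55) and the probe on another transcript (-1.55), met the methods' thresholds (adjusted p = 0.536 and 0.529, limma). Of all 43603 probes, 2385 met them in that setting. The probes disagreed on RPS replicate 4. The brightest probe and the probes starting at bases 349 and 325, which share runs of bases with it, read 10.95, 10.37 and 10.50 there, each within the top 2 of the RPS group. The probes starting at bases 650 and 578 and the probe on another transcript read 8.98, 7.19 and 8.52, far below RPS replicate 1.

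The wider lipoprotein pathway was taken from 6 lists of 94 genes, of which 50 had a probe with the symbol, each read at its brightest. Between the tissues 32 of the 50 passed as higher in the liver, against 18.7% of all probes, and 6 as higher in the colon, against 23.4%. Here and below, the shares over all probes include dim probes and probes without a symbol, so they are not matched to the 50. APOE, APOB and the other members are not in these lists. Of the apolipoproteins beside the members, 3 of 5 were higher in the liver: APOA5, an activator of triglyceride clearance (217-fold), APOF (147-fold) and the chaperone CLU (35.7-fold), while APOD and APOOL did not pass. Of the genes for lipoprotein assembly, 7 of 10 were higher in the liver and 1 in the colon. MTTP, which loads lipid onto APOB, was at least 1075-fold and PLA2G12B at least 478-fold higher in the liver, and the triglyceride synthase DGAT2 was 18.3-fold higher. Of plasma lipases and remodelling factors, 7 of 8 were higher in the liver and 1, the lipase LPL, in the colon, with the HDL-bound esterase PON1 at least 1992-fold and hepatic lipase LIPC at least 146-fold higher in the liver.

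The receptors were split, with 3 of 8 higher in the liver and 3 in the colon. The HDL receptor SCARB1 was 3.24-fold higher in the liver, whereas CD36, a fatty acid transporter, was 10.95-fold higher and the APOE receptor LRP8 at least 9.99-fold higher in the colon. Of the regulators of apolipoprotein genes, 12 of 17 were higher in the liver and 1 in the colon: NR0B2 by at least 65.6-fold and the carbohydrate-responsive factor MLXIPL by 76.9-fold in the liver, and PPARG by 104-fold in the colon. The lipid efflux genes NPC1 and NPC2 did not pass. By diet, 0 of the 50 genes had an adjusted p below 0.05 in either tissue. The methods' thresholds were met by 0 of 50 in the liver, against 3.56% of all probes, and by 1 of 50 in the colon, against 2.94%, LIPC (-0.82, standard error 0.28, adjusted p = 0.821, limma), which was detected on 2 of 8 colonic arrays. The interaction met them in 2 of 50, against 3.76% of all probes, at the transcription factors SREBF1 (-0.63, adjusted p = 0.727, limma) and CEBPB (-0.85, adjusted p = 0.999, limma). The median log2 difference of the 50 was -0.16 in the liver and -0.15 in the colon, against -0.0038 and 0.01 over all probes.

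The genes most like the apolipoproteins across arrays were ranked by Pearson's r to the median of the members' deviations. Over the 8 liver arrays that median was highest on CS replicate 3, 0.34 above the mean, and lowest on RPS replicate 2, 0.11 below it. The highest of 10724 probes with a symbol were RLF (r = 0.969, Spearman's rho = 0.833), the lipid droplet protein PLIN3 (0.937 and 0.857), MRPL14 (0.936 and 0.667), the lysosomal acid lipase LIPA (0.930 and 0.833) and LYPLA1 (0.930 and 0.976). Without the 2 arrays farthest from the median the values of r fell to 0.676, 0.777, 0.484, 0.875 and 0.772. Over the 8 colonic arrays and the 4 members detected on all of them, the highest of 11081 were PDGFC (r = 0.949, rho = 0.952), the complement gene C4A (0.942 and 0.833), ENPP1 (0.936 and 0.833), the complement gene C2 (0.927 and 0.976) and B4GALNT1 (0.923 and 0.762). The values of r lay between 0.854 and 0.890 without the 2 farthest arrays. These genes were picked for their r among all those probes, the arrays share slides by group, and no test was made.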

How the data were processed

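RNA of liver and colonic mucosa from pigs fed CS or RPS was hybridized to 16 Agilent porcine arrays with a single dye. Per the file headers, the authors had Feature Extraction (10.7 in the submitters' processing notes) write background-subtracted, detrended spot intensity values, not normalized between arrays. They also deposited a table of log2 values, quantile normalized over 16 arrays, which differed by at most 0.39 (log2) from the same normalization made here. The files' marks for outlier spots and signal above background were used as deposited.

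After removal of control spots and masking of outlier spots, log2 intensities were normalized by quantiles across the 8 arrays of each tissue (diet) or across 16 (tissue, interaction). The methods name a quantile algorithm but not the arrays. Spots of a probe were averaged. Probes were tested with limma 3.58.1 (R 4.3.3, data.table, version 1.17.8) and adjusted by Benjamini-Hochberg over 43603 probes. Calls needed an adjusted p below 0.05, between tissues also a fold change above 1.5. Single values were given an exact two-sided permutation test, whose smallest p is 0.0286. Figures used matplotlib 3.10.9. Every probe of the genes was read, in full at the brightest (mean over 16 arrays). From each list at most 3 called genes per comparison, by size, were named, and 1 of them is not reported here. A symbol of the RefSeq gene list was found for 14049 probes, and 29554 had none. The fits were tested on simulated data. Alternatives were scaling to the 75th percentile, normexp (offset 50), the authors' log2 values, dim probes left out, outlier spots kept, an intensity trend, quantile over 16 arrays or within tissue, 1 fit of all arrays, the methods' t-test, replicate and slide blocks, a fold above 2, averaged probes, each array left out and, chosen after seeing the data, 2 colonic arrays low in epithelial markers left out. Replicates were separate pigs. Genes and lists were chosen with earlier results of these data known.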

Additional observations from a re-analysis of the deposited data

Results flagged for a closer look

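In 6 of 72 groups of 4 arrays, over the probes described, the outermost array lay farther from its neighbour than Dixon's 95% critical value allows. Chance flags about 1 in 20 groups. For APOA1 in the liver, RPS replicate 2 had a log2 signal of 17.06, with the others between 17.46 and 17.49. For APOA2 in the colon, RPS replicate 3 had 8.738, with the others between 9.46 and 9.607. For APOA4 in the colon, RPS replicate 1 had 4.253 at the brightest probe, the only array of its group where it was well above background, with the others between 1.082 and 1.47. The remaining 3 concern C4BPA: liver RPS replicate 3 with 11.98 (others 13.4 to 13.65), colon RPS replicate 1 with 10.42 (others 8.39 to 8.524), and colon CS replicate 3 with 7.205 (others 9.054 to 9.36), each at a different probe. No cause was tested.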

How the results depend on the processing

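The count of apolipoprotein probes that passed was 0 for diet in liver, 0 for diet in colon, 12 between the tissues and 0 for the interaction in each alternative that kept the probes apart. With dim probes left out, 7 of the 12 were tested for diet in the colon. Averaged probes were read by gene and enter no count. The count of colonic probes past the methods' thresholds, 1, was 2 with 75th percentile scaling (APOM and APOA4) and with all 16 arrays in 1 fit (APOM and APOE), and 0 with normexp, the intensity trend, the methods' t-test and a fold above 2. With 1 array left out it was 0 to 2, and that in the liver 0 to 2. Without the 2 colonic arrays low in epithelial markers, an alternative chosen after seeing the data, it was 1 (APOE in place of APOM), 2385 of all colonic probes met these thresholds, and 1 colonic probe and 13 interactions had an adjusted p below 0.05. The APOA1 difference in the colon then turned to -0.067.

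Over all probes, the 1554 liver probes past the methods' thresholds became 221 with normexp, 965 with dim probes left out and 525 at a fold above 2. The 1283 colonic ones became 1968, 180, 779 and 517 with 75th percentile scaling, normexp, dim probes left out and a fold above 2, and 1067 to 2635 with 1 array left out (2635 without RPS replicate 2). The share of these colonic calls that were higher with RPS was 55.2%, and 69.0% with 75th percentile scaling. The 1 liver probe with an adjusted p below 0.05 became 0 with 75th percentile scaling, normexp, dim probes left out and the replicate block, 11 with all 16 arrays in 1 fit, and 1 to 5 with 1 array left out (5 without RPS replicate 4). In the colon 0 became 27 in that fit and 0 to 8 with 1 array left out (8 without RPS replicate 2). The 18379 probes between the tissues became 10897 with normexp. The 1 interaction became 0 with 75th percentile scaling, normexp and dim probes left out, and 1 to 6 with 1 array left out (6 without liver RPS replicate 4). The cause was not tested.

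Among single genes, none of them called, the direction turned as follows. With normexp, colonic APOB became 0.011 and the APOA4 interaction -0.092, and with probes averaged the APOM interaction became -0.0042. With 1 array left out, the liver difference spanned -0.52 to 1.26 for APOA4, -0.011 to 0.19 for APOC3 and -0.072 to 0.16 for APOE. The colonic difference spanned -0.24 to 0.50 for APOA1, -0.16 to 0.12 for APOA2, -0.62 to 0.44 for APOA4 and -0.77 to 0.15 for APOB. The interaction spanned -0.086 to 0.67 for APOA1, -0.23 to 0.064 for APOA2, -0.98 to 0.77 for APOA4 and -0.37 to 0.44 for APOB.

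Same-numbered liver and colonic arrays deviated together with CS, a hint from the data and not the design, but not with RPS. The numbers therefore entered no main fit and grouped arrays only in the replicate block alternatives. Over 23377 probes, deviations from the group means of same-numbered liver and colonic arrays correlated at 0.16 to 0.33 with CS, where each array matched its own number best in 4 of 4, and at -0.076 to 0.073 with RPS, in 1 of 4. Across the diets the correlation was -0.16 to 0.11 in liver and -0.51 to 0.55 in colon. With the replicate block 1522 liver and 1267 colonic probes met the methods' thresholds, 1 of them an apolipoprotein in the colon, and 18433 probes, all 12 apolipoprotein probes among them, passed between the tissues. Slide as a random block gave 18848. Signal over background limits the colonic APOA4, APOB and APOC3 values, whose size depends on the background correction.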

Other observations

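These genes were looked up after the spread of APOA4 and APOE had been seen. Across the 8 liver arrays, the probe with a symbol whose level ran most like APOA4 was a probe of SEC23A, a coat protein of the vesicles that carry secreted proteins out of the endoplasmic reticulum. It had r = 0.967, rho = 0.833 and r = 0.828 without the 2 arrays farthest from the median, over a range of 0.82 on the log2 scale (6.42 to 7.25). Each gene was ranked at its probe with the highest r. A brighter SEC23A probe, with liver means of 10.96 with CS and 10.74 with RPS, thus ran less like APOA4. Next came IVNS1ABP (r = 0.939), PPP2CA (0.918), EML4 (0.915) and SOD1 (0.913). Across the 8 colonic arrays the genes most like APOE were RGS10 (r = 0.984), RBMS1 (0.980), BTG1 (0.977), EP300 (0.976) and CD74 (0.975), the invariant chain of MHC class II, and r lay between 0.932 and 0.977 without the 2 farthest arrays. Each was picked as highest among 10724 probes in the liver or 11081 in the colon, with no test.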
